A study of Mus musculus with 128 samples.

Results

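The genes described are 10 that mark macrophages which have taken up lipid or debris or have become activated: Gpnmb, Trem2, Clec7a, Cst7, Itgax, Lgals3, Cd68, Tyrobp, Axl and Mpeg1, out of 55285 gene symbols in the tables. They are followed in 8 tissues of the mouse at 4 ages, which gives 80 tissue-gene pairs. The members were chosen by name with earlier results on ageing in these same tables known, so their changes with age are given here as a description of onset and size. Adjusted p-values of the members appear only for the difference between tissues, again as a description. Messenger RNA was sequenced from skin, gastrocnemius muscle (Muscle below), lung, liver, kidney, heart, brain and aorta at 6, 15, 24 and 30 months of age. The mice were male wild-type C57BL/6J for 7 of the tissues, with no transgene or treatment. For Aorta only the title states an age, and neither sex nor strain is named. There were 32 groups of 4 libraries each. Nothing in the labels says that the 4 libraries of a group came from separate animals, or that tissues came from the same ones, so the errors measure the spread between these libraries.

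Macrophages clear dying cells, lipid and debris, and they digest what they swallow in lysosomes. When the load is large they switch on a shared set of genes, in which the surface receptor Trem2 senses lipids and signals through the adaptor Tyrobp. Cells with this set are known as disease-associated microglia in brain, and as lipid-associated macrophages in liver, fat and the artery wall. Several members are also made by other cells: Gpnmb by melanocytes, Lgals3 by keratinocytes and other epithelia, Axl by fibroblasts and endothelium, and Itgax by dendritic cells.

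Recovered depth ran from 7.65 to 82.8 M reads per library with a median of 15.6 M. In all 8 tissues, 4 of 4 marker genes of the labelled tissue had their highest level there. By rank correlation with their tissue, 4 libraries were left out together in an alternative: Heart at 24 months, replicate 4, Liver at 30 months, replicate 3, and Kidney at 30 months, replicates 3 and 4. Replicate 3 of Muscle at 30 months, with a median correlation of 0.968 where the other Muscle libraries had 0.982 or more, also stood apart and was left out singly. All were kept, and without the 4 libraries 50 pairs passed the threshold at 30 against 6 months, where 49 passed with them. Values below are the deposited normalised reads, scaled within each tissue, so a level may be compared between ages of a tissue but not between genes, whose lengths were not used.

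The promoters of the members that carry the results are shown because pairs of them moved together and because Gpnmb moved furthest. RefSeq windows for GRCm38.p6 were found for 9 of the 10 members. The 250 bases before the annotated start are printed on the strand of the gene, at chr6:49036268-49036517 (plus strand) for Gpnmb, chr17:48346151-48346400 (plus) for Trem2, chr11:69666171-69666420 (minus) for Cd68, chr7:128129300-128129549 (plus) for Itgax and chr6:129472780-129473029 (minus) for Clec7a. Capitals mark matches to any of 5 short motifs read on both strands: GAGGAAG, a core bound by the macrophage factor PU.1, TGANTCA, the AP-1 site, CACGTG and CATGTG, cores bound by the MITF and TFE family, and an interferon-response core.
Gpnmb: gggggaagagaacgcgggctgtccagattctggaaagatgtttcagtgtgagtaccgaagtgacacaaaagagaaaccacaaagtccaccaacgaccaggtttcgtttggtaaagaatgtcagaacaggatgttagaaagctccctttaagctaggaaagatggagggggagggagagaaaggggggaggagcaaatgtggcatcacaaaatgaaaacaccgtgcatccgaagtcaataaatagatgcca
Trem2: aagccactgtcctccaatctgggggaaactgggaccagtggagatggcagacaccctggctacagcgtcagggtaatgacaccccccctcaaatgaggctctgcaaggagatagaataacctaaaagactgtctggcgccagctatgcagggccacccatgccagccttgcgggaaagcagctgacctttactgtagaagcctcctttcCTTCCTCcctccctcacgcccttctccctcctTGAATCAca
Cd68: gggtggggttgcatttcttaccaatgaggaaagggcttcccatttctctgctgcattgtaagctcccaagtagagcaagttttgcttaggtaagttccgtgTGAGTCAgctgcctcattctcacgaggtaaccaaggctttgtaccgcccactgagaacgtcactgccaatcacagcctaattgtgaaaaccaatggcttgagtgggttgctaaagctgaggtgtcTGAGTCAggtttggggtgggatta
Itgax: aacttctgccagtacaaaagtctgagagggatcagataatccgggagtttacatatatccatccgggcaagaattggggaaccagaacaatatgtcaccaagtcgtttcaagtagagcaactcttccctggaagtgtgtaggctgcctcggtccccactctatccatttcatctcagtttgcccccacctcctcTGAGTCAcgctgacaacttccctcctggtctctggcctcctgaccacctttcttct
Clec7a: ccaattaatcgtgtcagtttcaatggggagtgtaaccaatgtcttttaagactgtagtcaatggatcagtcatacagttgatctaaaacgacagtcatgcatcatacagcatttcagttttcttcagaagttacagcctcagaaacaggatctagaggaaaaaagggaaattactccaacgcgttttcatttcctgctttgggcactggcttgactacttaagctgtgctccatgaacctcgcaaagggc
Cd68 held the AP-1 site at 2 places, Trem2 held it once beside 1 PU.1 core on the opposite strand, and Itgax held it once, with no overlap between matches. Gpnmb and Clec7a held none of the 5 motifs in this window, which says only that these letters are not there. Among the 10 windows of the members, AP-1 matched in 3, the PU.1 core in 2, and the other 3 motifs in none. Of 32851 promoter windows of the same length, 6.75% held the AP-1 site, 10.6% the PU.1 core, 6.02% CACGTG, 12.3% CATGTG and 2.98% the interferon core.

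At 6 months the members differed widely in where they were found, given here as mean CPM (recovered reads scaled to the depth of the library) ± SD over 4 libraries with no test, since tables were normalised separately. Lung held the highest level of Clec7a (45.6 ± 7.52), Itgax (62.5 ± 2.82), Cd68 (41.9 ± 3.59), Tyrobp (49.9 ± 8.06), Axl (139 ± 8.73) and Mpeg1 (184 ± 7.50), an organ rich in alveolar macrophages. Skin held the highest level of Gpnmb (44.2 ± 21.5), Lgals3 (653 ± 58.8) and Cst7 (3.06 ± 1.09). Keratinocyte keratins were abundant there, and melanocyte markers were found there above the other tissues. Brain held the highest level of Trem2, 10.6 ± 0.340, which microglia express at rest, and it was last in the order for Clec7a (0.250 ± 0.210), Itgax (0.296 ± 0.267) and Lgals3 (0.514 ± 0.193). Liver and Kidney came last for Gpnmb, at 0.0840 ± 0.0663 in Liver and 0.170 ± 0.137 in Kidney, and these 2 neighbours did not differ beyond their spread. Below the leading tissue of each gene, the ranges of mean ± SD of neighbours in the order often overlapped. Trem2, for example, ran Lung, Aorta, Heart, Skin, Muscle, Liver and Kidney after Brain, and from Aorta down the range of each tissue overlapped that of the next.

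At 30 against 6 months the members were higher in Liver, Kidney, Brain, Lung, Heart and Muscle, while Aorta and Skin had none past the threshold. The threshold was an adjusted p of 0.05 in limma-trend over all genes of a tissue. Of 80 pairs 75 had enough reads to be tested, the other 5 being Cst7 in Aorta, Heart, Kidney, Liver and Muscle. Of those 75, 49 passed and all 49 were higher, against 6.84% of all tested genes called higher over the 8 tissues. In 53 pairs every 30-month library stood above every 6-month library, against 8.89% of all tested genes. These are the contrasts the members were named from, so nothing is read from those counts. Passing were 9 of 10 in Brain (3.32% of its genes called higher), 8 of 9 in Heart (4.11%), 8 of 9 in Kidney (14.1%), 9 of 9 in Liver (13.8%), 9 of 10 in Lung (10.7%) and 6 of 9 in Muscle (6.15%). None of 9 passed in Aorta (3.08%) and none of 10 in Skin (0.167%). In Aorta 1 member had an unadjusted p under 0.05 and edgeR and DESeq2 called none; in Skin 2 had one, edgeR called none and DESeq2 called 1, Axl. In these bulk samples, fewer cells of a type and less RNA per cell cannot be told apart, nor can more of either.

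**Figure D1:**
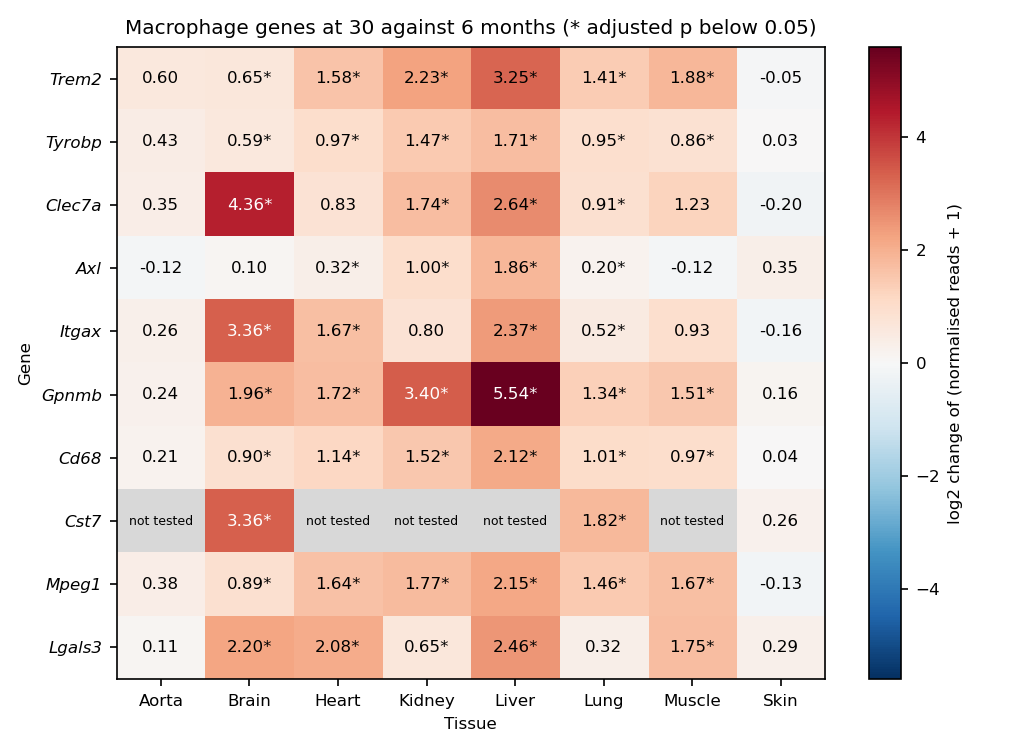
Log2 change of normalised reads plus 1 at 30 against 6 months for 10 genes (rows) in 8 tissues (columns), with an asterisk where the adjusted p was below 0.05 and grey where a gene was not tested. The deepest cells are Gpnmb in Liver at 5.54 and Clec7a in Brain at 4.36, and the Aorta and Skin columns stay between -0.20 and 0.60.

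Trem2, the lipid-sensing receptor, passed in 6 tissues. The smallest change was in Brain, which held its highest level at 6 months. The largest were in Liver and Kidney, where Trem2 was low at 6 months (0.327 ± 0.172 and 0.303 ± 0.0731 CPM). In Brain it had 309, 334, 239.9 and 289 normalised reads at 30 months, against 182, 179, 183 and 195 at 6 months, a log2 change of 0.65 ± 0.10 (SE, 4 libraries an age, as for all changes below). The 2 ages did not overlap in Brain, yet this was the smallest of the 6 changes. In Liver, Trem2 had 39.3, 127, 90.1 and 42.8 at 30 months, against 1.80, 6.75, 9.63 and 9.93 at 6 months, a change of 3.25 ± 0.51. Kidney and Muscle lay between, with 34.7, 19.6, 19.3 and 43.2 in 30-month Kidney against 6.71, 5.02, 3.81 and 5.06 in 6-month Kidney (2.23 ± 0.37), and a change of 1.88 ± 0.38 in Muscle. Heart and Lung changed by 1.58 ± 0.36 and 1.41 ± 0.30. The Heart change no longer passed without 6-month replicate 1 (1.30), 6-month replicate 3 (1.55) or 30-month replicate 1 (1.58). In Aorta the highest 6-month library lay just under the lowest 30-month one, with 27.6, 30.8, 33.2 and 24.5 at 30 months and 18.6, 19.1, 24.5 and 14.1 at 6 months, but the change of 0.60 ± 0.27 did not pass.

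Tyrobp, the adaptor that carries the signal of Trem2 and of other receptors, passed in the same 6 tissues with smaller and more even changes. It averaged 581 ± 287 normalised reads in 30-month Liver and 162 ± 32.1 in 6-month Liver (SD, n = 4 each), a change of 1.71 ± 0.31. In Kidney the change was 1.47 ± 0.23, in Heart 0.97 ± 0.18, in Lung 0.95 ± 0.30 and in Muscle 0.86 ± 0.17. The Lung change no longer passed when 6-month replicate 2 (0.90), 3 (0.90) or 4 (0.94) was left out, or 30-month replicate 1 (0.86) or 4 (0.72). Brain had 221, 346, 189 and 234 at 30 months, against 159, 152, 147 and 186 at 6 months. Its change of 0.59 ± 0.15 fell short of the threshold without any of 6-month replicates 2 and 3 or 30-month replicate 2, with changes of 0.56, 0.54 and 0.41.

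Clec7a, known as Dectin-1, is a receptor for fungal glucans that activated microglia switch on, and Brain was the tissue where it moved furthest. Brain libraries had 97.1, 113, 58.7 and 66.0 normalised reads at 30 months, against 7.68, 2.67, 6.99 and 0 at 6 months, a change of 4.36 ± 0.50. Behind these stood 369 reads at 30 months and 15 reads at 6 months, a depth-scaled ratio of 15.4 with a 95% exact counting interval of 9.23 to 27.8. Intervals of this kind cover counting error only. Liver followed with 450.2, 876, 699.8 and 206 at 30 months, against 88.1, 79.4, 75.4 and 67.5 at 6 months (2.64 ± 0.39), then Kidney (1.74 ± 0.31) and Lung (0.91 ± 0.25). The Lung change no longer passed when 6-month replicate 3 (0.81) was left out, or 30-month replicate 1 (0.75) or 4 (0.88). Heart and Muscle did not pass, at 0.83 ± 0.42 and 1.23 ± 0.41. In Heart, replicates 3 and 4 at 30 months had 17.9 and 26.9 and fell among the 6-month libraries, while replicates 1 and 2 had 81.5 and 68.2. The Muscle change passed with edgeR, DESeq2 and the replicate block, and without 30-month replicate 3, where it was 1.45, or 24-month replicate 3, where it was 1.23.

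Itgax, which encodes the integrin alpha chain CD11c, also moved furthest in Brain. In Brain it had 44.0, 79.0, 31.6 and 50.02 normalised reads at 30 months, against 11.0, 6.67, 1.16 and 1.74 at 6 months, a change of 3.36 ± 0.50, with 236 and 17 reads behind the 2 ages. Liver and Heart passed as well, with changes of 2.37 ± 0.56 and 1.67 ± 0.32. In Lung, where the gene was abundant at every age, it had 1597, 1040.2, 1568 and 1804 at 30 months and 1014, 964, 1039.7 and 1101 at 6 months, which overlap, with a change of 0.52 ± 0.15. It no longer passed when 6-month replicate 1 (0.51), 2 (0.49) or 3 (0.52) was left out, or 30-month replicate 1 (0.48), 3 (0.49) or 4 (0.42). Kidney had 153, 131, 30.9 and 181 at 30 months, against 64.3, 51.4, 52.0 and 68.8 at 6 months. Replicate 3 alone lay below the 6-month libraries there, and the change of 0.80 ± 0.39 did not pass with it, but was 1.37 and passed without it. With replicate 3 kept, edgeR and DESeq2 called it. In Muscle the change of 0.93 ± 0.38 did not pass, and it passed with edgeR and DESeq2 and without 15-month replicate 3.

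Axl is a receptor tyrosine kinase that recognises dying cells through the bridging protein Gas6 and it passed in 4 tissues. Kidney had 854, 948, 787 and 1141 normalised reads at 30 months, against 483, 416, 423 and 539 at 6 months (0.996 ± 0.11), and Liver had 908, 1625, 1927 and 677 at 30 months, against 266, 356, 339 and 344 at 6 months (1.86 ± 0.27). Both tissues were without overlap between the ages. The changes that passed in Heart (0.32 ± 0.07) and Lung (0.20 ± 0.06) were small. The Heart change no longer passed when 6-month replicate 1 (0.27) or 3 (0.32) was left out, or 30-month replicate 1 (0.30), 2 (0.30) or 3 (0.31). The Lung change no longer passed when 6-month replicate 1 (0.14), 2 (0.20) or 3 (0.20) was left out, or 30-month replicate 1 (0.18), 2 (0.19) or 4 (0.20), nor with no filter, the 2 ages alone or the replicate block. Brain (0.10 ± 0.06), Muscle (-0.12 ± 0.08) and Aorta (-0.12 ± 0.13) did not pass. Skin had 1751, 1728, 1783 and 2019 at 30 months, against 1399.7, 1624, 1395 and 1318 at 6 months, with no overlap, but its change of 0.35 ± 0.10 did not pass, except with DESeq2 or without 6-month replicate 2 (0.41).

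Gpnmb, a membrane glycoprotein of lysosomes and lipid-laden macrophages, started from almost nothing in Liver and Kidney and was found in both at every later age. Liver had 1.80, 3.38, 0 and 1.99 normalised reads at 6 months, 8.51, 16.6, 10.3 and 10.1 at 15 months, 29.9, 172, 107 and 68.4 at 24 months and 284, 85.1, 248 and 27.0 at 30 months. No later library overlapped the 6-month ones. At 30 months replicates 1 and 3 stood well above replicates 2 and 4. The change at 30 months was 5.54 ± 0.68, and because 6-month Liver held only 4 reads in all, against 444 at 30 months, the ratio of 79.4 has a counting interval of 30.8 to 293.0. Kidney had 2.88, 1.25, 1.27 and 6.07 at 6 months, 16.9, 14.4, 12.1 and 14.7 at 15 months, 31.0, 19.1, 34.1 and 32.5 at 24 months and 18.4, 34.6, 46.3 and 52.7 at 30 months. Each later age was above all 6-month libraries, with changes of 2.16, 3.10 and 3.40 ± 0.38.

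In Brain, Heart, Muscle and Lung, where Gpnmb was already present at 6 months, its changes lay between 1.34 and 1.96, and in Aorta and Skin they did not pass (0.24 ± 0.28 and 0.16 ± 0.33). Brain had 123, 161, 171 and 116 normalised reads at 30 months, against 26.3, 37.4, 44.3 and 36.6 at 6 months (1.96 ± 0.18), with 15- and 24-month means of 59.1 and 83.8 in between. Heart changed by 1.72 ± 0.19 and Muscle by 1.51 ± 0.24, both without overlap. In Lung the change of 1.34 ± 0.39 fell short of the threshold without 30-month replicate 2 (1.15) or without any of 6-month replicates 1, 2 and 4 (1.27 to 1.35). Aorta had 91.3, 114, 108 and 95.4 at 30 months, against 75.6, 101, 113 and 62.9 at 6 months, and the ages overlapped. Skin, with the highest level at 6 months, had 463, 266, 981 and 847 at 6 months, 793, 744, 926 and 932 at 15 months, 1675, 1721, 996 and 859.7 at 24 months and 815, 605, 609 and 535 at 30 months. Every 30-month Skin library was below every 24-month one, and no age passed against 6 months. The summed level of 5 melanocyte genes in Skin ran from 253 to 529 at 6 months, 466 to 901 at 15, 399.8 to 2765 at 24 and 261 to 683 at 30, and its part in the Skin values was not tested.

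**Figure D2:**
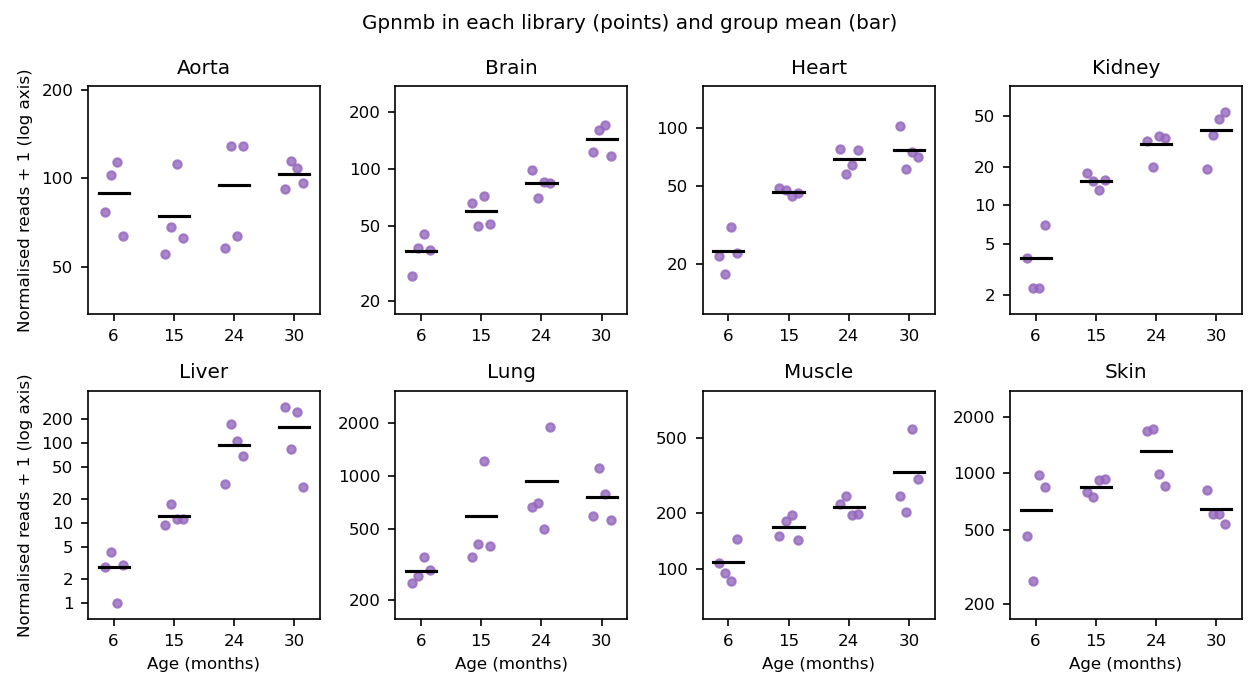
Gpnmb in each library (points) with the group mean (bar), by age in months on the horizontal axis, as normalised reads plus 1 on a log axis that differs between tissues. In Brain, Heart, Kidney and Liver every library of 15 months or more lies above the 6-month libraries, while in Aorta and Skin the 30-month libraries fall within the 6-month range or close to it.

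The lysosomal and phagocytic members Cd68 and Mpeg1 moved together and passed in the same 6 tissues without overlap between 30 and 6 months in any. Cd68 is a lysosomal membrane glycoprotein used to stain macrophages. It had 350.1, 862, 952 and 307 normalised reads in 30-month Liver, against 144, 125, 122 and 109 in 6-month Liver, a change of 2.12 ± 0.33, and changes of 0.90 in Brain to 1.52 in Kidney elsewhere. Mpeg1 encodes perforin-2, a pore-forming protein that kills engulfed bacteria. It had 4677, 7263, 6759 and 2046 in 30-month Liver, against 1059, 989.5, 984 and 1156 in 6-month Liver (2.15 ± 0.36). In Heart, Kidney, Lung and Muscle it changed by 1.64, 1.77, 1.46 and 1.67. In Brain it had 965, 1113, 823 and 993 at 30 months, against 544, 527, 494 and 517 at 6 months (0.89 ± 0.07).

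Cst7, which encodes cystatin F, an inhibitor of lysosomal cysteine cathepsins, could be tested in 3 tissues. Brain had 25.8, 59.2, 21.8 and 26.7 normalised reads at 30 months, against 3.29, 1.33, 2.33 and 1.74 at 6 months, a change of 3.36 ± 0.40 from 147 and 7 reads, a ratio of 13.2 with a counting interval of 6.23 to 33.3. Lung had 64.0, 81.1, 60.8 and 72.0 at 30 months, against 23.4, 29.9, 10.7 and 16.4 at 6 months (1.82 ± 0.26). Skin held the gene at every age and did not change past the threshold (0.26 ± 0.29). In the tissues where it was not tested no library held more than 26 reads (Aorta), 7 (Heart), 16 (Kidney), 23 (Liver) or 4 (Muscle), and all 4 Heart libraries of 6 months were at 0.

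Lgals3 encodes galectin-3, a sugar-binding protein that macrophages secrete and that marks damaged lysosomes. Heart had 217, 141, 158 and 139 normalised reads at 30 months, against 33.5, 47.6, 33.1 and 36.5 at 6 months (2.08 ± 0.24), the largest change of any member there. Brain had 50.04, 40.9, 38.9 and 41.8 at 30 months, against 13.2, 8.005, 9.32 and 5.22 at 6 months (2.20 ± 0.27). Liver (2.46 ± 0.34) and Muscle (1.75 ± 0.28) passed as well. Where the gene started high the changes were small: 0.65 ± 0.09 in Kidney, which passed, 0.32 ± 0.14 in Lung, which passed at 24 but at 30 months only with the 2 ages fitted alone or without 24-month replicate 4, and 0.29 ± 0.13 in Skin, which did not. Lung had 2329, 2474, 2219 and 2432 at 30 months, against 2132, 1787, 1842 and 1821 at 6 months, and Skin had 10457, 10768, 11872 and 12215 at 30 months, against 8778, 10014, 9647 and 8697 at 6 months, both without overlap.

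By age, few pairs passed at 15 months, when 32 of 75 had an unadjusted p under 0.05, and most of those that passed at all had done so by 24. At 15 against 6 months 4 pairs passed, all higher, against 0.435% of all tested genes: Gpnmb in Heart (1.03 ± 0.19) and Kidney (2.16 ± 0.38), Axl in Heart (0.38 ± 0.07) and Mpeg1 in Lung (0.78 ± 0.19). This count moved with the settings: DESeq2 called 10 pairs, a fit of the 2 ages alone 14, the fit without the Heart, Liver and Kidney libraries named above 8, and leaving out 1 library 2 to 7. Heart Gpnmb had 47.9, 47.0, 43.4 and 45.0 normalised reads at 15 months, against 21.1, 16.7, 30.1 and 21.9 at 6 months, and Lung Mpeg1 had 3999, 6453, 5389.5 and 5253 at 15 months, against 3068, 2881, 3009 and 3187 at 6 months. At 24 against 6 months 46 pairs passed, against 4.04% of genes called higher. They were 8 in Brain (0.581% of its genes), 7 in Heart (3.75%), 8 in Kidney (6.72%), 9 in Liver (7.6%), 10 in Lung (8.91%), 4 in Muscle (1.16%), and none in Aorta (2.8%) or Skin (0.887%). In Aorta 1 member had an unadjusted p under 0.05 at 24 months and edgeR and DESeq2 called none, and in Skin 3 had one, edgeR called none and DESeq2 called 1. The earliest age at which a pair passed was 15 months for 4 pairs, 24 months for 42 and 30 months for 4, and 25 tested pairs never passed. These comparisons share the same 6-month libraries.

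Between neighbouring ages the step that passed most often was the one to 24 months. The step from 24 to 30 months spans less time than the earlier steps, so the counts are not rates. At 24 against 15 months 13 pairs passed, all higher, against 1.9% of all tested genes, while edgeR with RLE factors called 20, DESeq2 29 and the fit with no filter 8. They included Gpnmb in Liver (2.72 ± 0.68), Clec7a in Liver (1.72 ± 0.39) and Kidney, Cst7 in Brain (2.37 ± 0.40) and Lung, and Mpeg1 in Brain, Kidney and Muscle. Cst7 in Brain had 16.6, 15.1, 13.5 and 32.9 normalised reads at 24 months, against 3.28, 2.87, 1.67 and 3.40 at 15 months. At 15 months its libraries overlapped those of 6 months. At 30 against 24 months limma-trend called none of 75, against 0.425% of genes called higher. In that step 18 pairs had an unadjusted p under 0.05, edgeR called 2 and DESeq2 called 3.

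The share of the 30-month change already present is given over the pairs that passed at 30 months and on the log2 scale. Its median at 15 months was 28.3% in Brain, 48.9% in Heart, 23.6% in Kidney, 25.9% in Liver, 53.4% in Lung and 27.2% in Muscle. The members of a tissue varied widely around it, from 6.93% to 122% in Heart and 24.8% to 111% in Lung, so the tissues overlapped, and no difference between them was tested. At 24 months it was 78.7% in Brain, 85.7% in Heart, 80.3% in Kidney, 74.3% in Liver, 113% in Lung and 68.5% in Muscle. In Lung the shares at 24 months ran from 96.1% to 181%. Clec7a in Lung, for example, averaged 750.3, 1272, 1958 and 1451 normalised reads at 6, 15, 24 and 30 months. In Skin several members were higher at 15 and 24 months than at 6 or 30 without passing: Trem2 averaged 9.50, 20.8, 31.6 and 9.68, and Cd68 141, 241, 229 and 141.

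**Figure D3:**
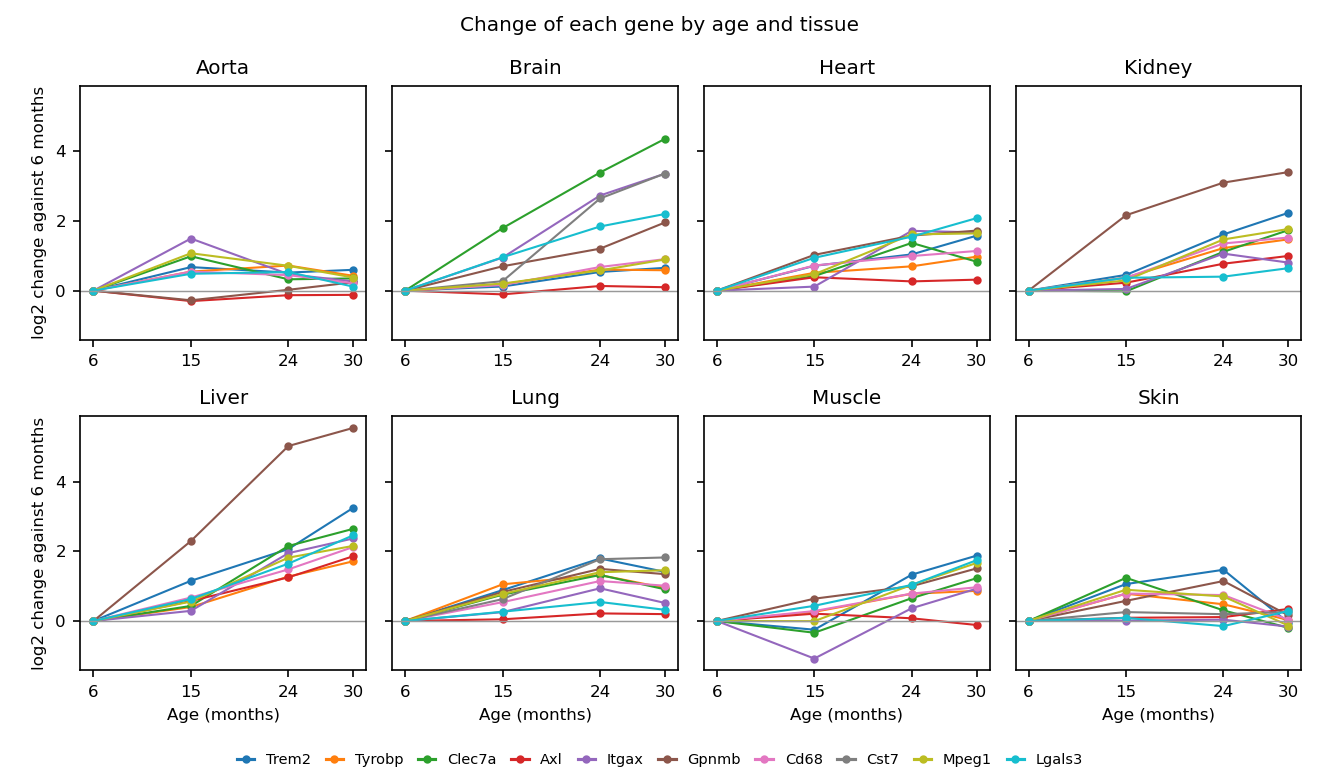
Log2 change against 6 months (vertical axis) at 6, 15, 24 and 30 months (horizontal axis) for each gene (coloured line) in 8 tissues. Most lines climb from 15 to 24 months in Brain, Kidney and Liver, level off or turn down after 24 months in Lung, and come back close to 0 at 30 months in Skin for Trem2, Cd68 and Mpeg1.

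The changes were not the same size across tissues. A limma-trend F test of the differences between tissues in the 30 against 6 month change passed for the 9 members tested in all 8 tissues, against 32.2% of 21469 genes, and like the calls above it rests on the contrast the members were known from. Set against the mean of the other 7 tissues, Liver was higher for 9 members (12.3% of genes were higher there), by 4.06 ± 0.42 for Gpnmb, 2.06 ± 0.44 for Trem2 and 1.61 ± 0.15 for Axl. Brain was higher for 3 (0.503%): Clec7a by 3.28 ± 0.46, Itgax by 2.44 ± 0.48 and Lgals3 by 1.11 ± 0.28. Kidney was higher for 2 (2.59%), Gpnmb by 1.62 ± 0.42 and Axl by 0.63 ± 0.15. Skin was lower for 8 (4.73%) and Aorta for 5 (5.57%), with Gpnmb lower by 2.08 and 1.99 in turn. Lung was lower for Lgals3 alone (1.21% of genes) and Muscle for Axl alone (1.63%).

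Genes used as general macrophage markers moved in the same tissues. Counted were 12 general macrophage genes (Csf1r, Adgre1, Aif1, Cd14, Fcgr1, Itgam, C1qa, C1qb, C1qc, Laptm5, Lyz2 and Cx3cr1), none of which was at 0 in any group. Of these, 12 rose in Liver (13.8% of its genes called higher), 11 in Heart (4.11%), 11 in Kidney (14.1%) and 8 in Lung (10.7%). In Muscle 8 rose (6.15%), in Brain 6 (3.32%), and none in Aorta (3.08%) or Skin (0.167%). Cx3cr1 is low in resident Kupffer cells, and averaged 42.2 ± 10.6 normalised reads in 30-month Liver and 5.40 ± 1.95 in 6-month Liver (SD, n = 4 each). In Aorta and Skin none of the 12 had an unadjusted p under 0.05 and neither edgeR nor DESeq2 called any. Their summed level ran from 9803 to 29214 normalised reads in 30-month Liver and 4038 to 6449 in 6-month Liver, and from 4656 to 12393 in 30-month Kidney and 2046 to 2386 in 6-month Kidney. It ran from 5920.1 to 7740.4 in 30-month Brain and 5209.7 to 5382 in 6-month Brain, and from 6458 to 11467 in 30-month Heart and 4398 to 4505 in 6-month Heart. In Lung the sums were 96171 to 119292 at 30 months and 87722 to 101933 at 6 months, and in Muscle 4507 to 7281 at 30 months and 2946 to 3929 at 6 months. In Aorta they were 6588 to 11168 at 30 months and 5210.35 to 10937 at 6 months, and in Skin 4124 to 6441 at 30 months and 2124 to 9979.5 at 6 months. These sums weigh abundant genes most. In 6-month Lung, for example, C1qa, C1qb and C1qc averaged 617, 515 and 522 normalised reads, a small part of the sum. They changed by 1.31, 1.44 and 1.34 at 30 months, while Lyz2 in Lung changed by 0.12 and did not pass. The part of the 12 genes in the changes of the members was not tested.

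Medians of the members and of those genes are given by tissue. They cover 10 members in Brain, Lung and Skin, and 9 in the other tissues, where Cst7 was not tested. The gaps are therefore not ranked between tissues. The median log2 change at 30 months was 1.43 for the members and 0.44 for the general macrophage genes in Brain, 1.58 and 1.09 in Heart, 2.37 and 1.92 in Liver, and 1.23 and 0.65 in Muscle. It was 1.52 and 1.94 in Kidney, 0.98 and 1.30 in Lung, 0.26 and 0.39 in Aorta, and 0.03 and 0.09 in Skin, while the median of all tested genes lay between -0.02 and 0.01. In Brain 5 members, Clec7a, Cst7, Itgax, Lgals3 and Gpnmb, changed more than any of the 12, whose largest was Lyz2 at 1.76. Trem2, Tyrobp, Cd68 and Mpeg1 lay 0.11 to 0.43 above the mean change of the 12, which was 0.47, and Axl lay below it at 0.10. In Heart 5 members also exceeded all 12 (Gpnmb, Trem2, Itgax, Lgals3 and Mpeg1), and so did 5 in Muscle (Gpnmb, Trem2, Clec7a, Lgals3 and Mpeg1). In Liver Gpnmb and Trem2 did, in Kidney Gpnmb, in Lung Cst7 and in Aorta Trem2. The members were named from these same changes, so nothing is read from how many exceeded the 12. In Brain Clec7a, Cst7, Itgax and Lgals3 had only 15, 7, 17 and 29 reads in all at 6 months. Of 6 genes of resting microglia (P2ry12, Tmem119, Sall1, Siglech, Gpr34 and Olfml3) none passed in Brain with limma-trend, edgeR or DESeq2, and 1 had an unadjusted p under 0.05.

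**Figure D4:**
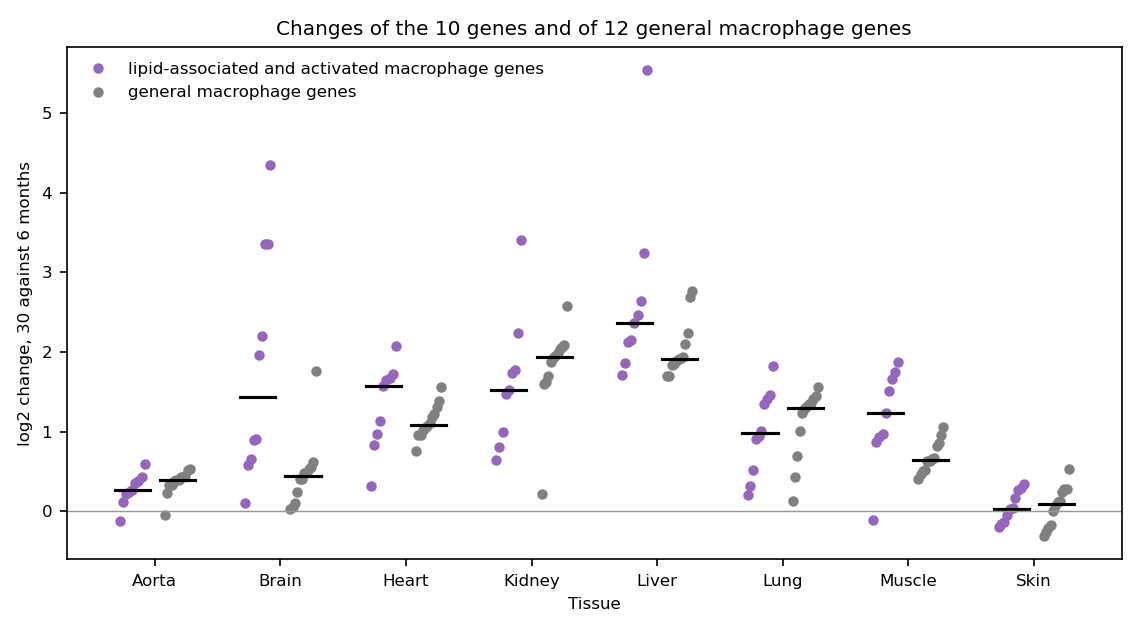
Log2 change at 30 against 6 months (vertical axis) of the members tested (purple points) and of 12 general macrophage genes (grey points) in each tissue, with the median as a bar. Purple points above all grey ones number 5 in each of Brain, Heart and Muscle, 2 in Liver, 1 in each of Kidney, Lung and Aorta, and 0 in Skin. The members were named from these same changes, so nothing is read from those numbers.

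Markers of other cells moved in some of the same tissues. Of all tested genes 13.8% were called higher in Liver, 14.1% in Kidney, 10.7% in Lung and 3.32% in Brain. In Liver 4 of 4 Kupffer cell genes rose, with Cd5l higher by 2.04 ± 0.27 (limma-trend adjusted p = 0.000288) and Clec4f by 1.21 ± 0.18 (0.000489). The same list rose 4 of 4 in Lung, where Cd5l had 368 ± 301 normalised reads at 30 months and 4.30 ± 3.41 at 6 months (SD, n = 4 each). In Kidney 5 of 5 tested T and NK cell genes rose, among them Cd3g by 1.86 ± 0.32 (adjusted p = 0.000533), in Lung 5 of 7, and in Liver 4 of 5, with Cd3g higher by 3.54 ± 0.65 (0.00142). In Liver 5 of 5 B and plasma cell genes rose too, Cd79a by 2.11 ± 0.32 (0.000521), and 2 of 2 neutrophil genes, S100a9 by 3.01 ± 0.76 (0.00944). Dendritic cell genes, which bear on Itgax, rose for 2 of 5 in Liver and 2 of 5 in Lung and for none of 2 tested in Brain or 5 in Kidney, where 1 had an unadjusted p under 0.05 in Kidney and DESeq2 called that many. In Lung the alveolar macrophage gene Chil3 was 1.44 ± 0.38 higher (0.0145) and Marco 1.25 ± 0.34 higher (0.0184), while Car4 of the same list fell by 0.43 (0.00138). In Skin the liver gene Alb had 43.7 ± 17.5 normalised reads at 30 months and 3652 ± 4842 at 6 months, so the 6-month Skin libraries differed among themselves. None of these was tested for its part in the members' changes.

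Other genes of the same pathways were counted from 4 lists of 43 genes in all, which makes 344 tissue-gene pairs, 338 of them tested. At 30 months 110 were higher and 13 lower, against 6.84% and 6.09% of all tested genes. Among 9 genes of the signalling of Trem2, Tyrobp and the related adaptor Fcer1g, 8 rose in Liver, 8 in Lung, 7 in Kidney, 4 in Heart and 3 in Brain. In Muscle 1 rose, which was Fcer1g. None rose in Aorta or Skin, where no method called any and none had an unadjusted p under 0.05. Syk, the kinase that Tyrobp recruits, was 1.96 ± 0.33 higher in Liver (adjusted p = 0.001), Plcg2, a phospholipase in the same cascade, 0.70 ± 0.15 higher in Brain (0.00593), and Fcer1g, a related adaptor, 1.77 ± 0.23 higher in Kidney (6.39e-05). In Muscle Pik3cd fell by 0.64 (0.0131).

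Among 12 lysosomal genes, Ctss, a cathepsin of antigen-presenting cells, rose in 6 tissues, by 0.79 in Brain, 1.45 in Heart, 2.04 in Kidney, 1.98 in Liver, 1.24 in Lung and 1.27 in Muscle. Of the list 10 of 12 rose in Liver, 6 of 11 in Brain, 6 of 12 in Lung, 3 of 11 in Heart, 2 of 12 in Muscle and 1 of 12 in Aorta. In Kidney 3 rose and 3 fell, and in Muscle Ctsk fell (-0.82). Of all tested genes 14.1% were called higher in Kidney, 13.8% in Liver, 10.7% in Lung and 6.15% in Muscle. The share was 4.11% in Heart, 3.32% in Brain and 3.08% in Aorta. Of 15625 genes tested in Kidney 2219 were called lower. Among 14 genes of lipid handling 6 rose in Liver, 5 in Lung, 4 in each of Heart, Kidney and Muscle, 2 of 11 tested in Brain and 1 in Aorta. Of this list 2 fell in Liver, 2 in Kidney, 1 in Lung and 1 in Skin, where Abca1, a cholesterol exporter, fell by 0.82. Mmp12, a macrophage elastase, was 3.78 ± 0.59 higher in Liver (limma-trend adjusted p = 0.000633), and Msr1, a scavenger receptor for modified lipoproteins, 2.50 ± 0.41 higher in Lung (0.000957). In Kidney Spp1, osteopontin, rose by 0.99, while Lpl and Cd36, which take up fatty acids from lipoproteins and across membranes, fell by 1.17 and 1.21.

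The last list held 8 genes: Gas6, Pros1, Mertk, Tyro3, Itgb2, Lgals3bp, Csf1 and Il34. Itgb2, the beta chain that pairs with Itgax, was higher in Brain by 1.10 ± 0.15 (limma-trend adjusted p = 0.000157) and in Heart by 1.59 ± 0.18 (9.97e-05). It was also higher in Kidney by 1.71 ± 0.27 (0.000358), in Liver by 2.44 ± 0.35 (0.00041), in Lung by 1.13 ± 0.24 (0.00474) and in Muscle by 0.96 ± 0.24 (0.0145). Lgals3bp, which binds galectin-3, was 1.30 ± 0.10 higher in Brain (1.77e-07) and 1.61 ± 0.17 higher in Kidney (1e-05), and it rose in Heart, Liver and Lung by 1.09, 1.08 and 0.60. Gas6, the ligand of Axl, rose in Liver by 0.91, where Axl changed by 1.86, and in Muscle by 0.41, where Axl changed by -0.12. Tyro3, a kinase of the Axl family, fell in Lung by 0.59 (0.000386).

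Across 24 changes (8 tissues at 15, 24 and 30 against 6 months), which share their 6-month libraries, the 9 members tested everywhere fell into patterns that are described with no test. Trem2 and Cd68 were alike at a Pearson r of 0.93, Gpnmb and Axl at 0.92, and Clec7a and Itgax at 0.90, while Clec7a and Axl were least alike at 0.27. Among 10888 other genes the mean of the members was most like Itgb2 (0.93), Cd48 (0.93), Cd52 (0.91), Trim30a (0.91) and Tlr2 (0.91). Gpnmb was most like Myof (0.95), Mical1 (0.94) and S100a6 (0.93), which each moved most in Liver.

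Libraries of a group tended to be high or low for many members at once. In Kidney at 30 months replicate 4 was the highest of its group for 10 of 10 members and replicate 3 the lowest for 9. In Liver at 30 months replicate 4 was the lowest for 9, and at 24 months replicate 1 was the highest for 8. In Aorta replicate 3 was the highest for 9 members at 6 months, and replicate 3 at 15 months was also the highest for 9. At 15 months the 4 Aorta libraries had Itgax at 24.1, 22.0, 169.7 and 50.2 and Mpeg1 at 416, 318, 1422 and 920.4 normalised reads. The spread grew with age in Liver, where the median coefficient of variation of the members was 19.7% at 6, 26.1% at 15, 47.3% at 24 and 52.8% at 30 months, and in Kidney it was 13.8%, 11.7%, 23.3% and 40.0% at the same ages. In Brain it stayed between 14.2% and 19.4%.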

How the data were processed

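The authors deposited 1 table per tissue of normalised reads per gene, used here as a signal with no unit of length. Per the labels' protocols RNA was extracted with RNAiso Plus and libraries were made with Illumina Stranded mRNA Prep. Per the submitters' processing notes FastQC, STAR, RSEM and DESeq2 were used on GRCm39; versions and annotation were not given in the sources used here. Values in a library were whole multiples of 1 step, and 100% came out whole within 0.01, so whole reads were recovered and gave the depths.

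The test was limma-trend on log2(value + 1), with 1 mean per age in each tissue, genes kept by filterByExpr with a minimum count of 10, and Benjamini-Hochberg adjustment over all genes of the tissue. From 13420 genes (Liver) to 17112 (Lung) were tested. Fold changes on this scale understate low genes. Differences between tissues were fitted in 1 limma-trend model. Alternatives were pseudocounts of 0.1 and 5, no filter, only the 2 ages compared, edgeR's quasi-likelihood test (TMM and RLE) and DESeq2 on recovered reads, a replicate block, and each library left out. A fit without 4 libraries of Heart, Liver and Kidney with low rank correlations was added after seeing the data. The tests were checked on simulated data. Tools were R 4.3.3, limma 3.58.1, edgeR 4.0.16, DESeq2 1.42.0, Python 3.11.15, pandas 2.3.3 and matplotlib 3.10.9.

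The members and lists were chosen with earlier results of these data known. Beside the members, the text names up to 3 genes per list and tissue with the smallest adjusted p, further tissues of Itgb2, Lgals3bp and Gas6 added after their values were seen, and the 5 genes most like the mean of the members and 3 most like Gpnmb by Pearson r. General macrophage genes, resting microglia genes and the list that holds Itgb2 are named in full to show the lists. Sequences are from RefSeq and no coordinates were converted between builds.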

Additional observations from a re-analysis of the deposited data

Results flagged for a closer look

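In 27 of 320 groups of 4 libraries the highest or lowest library was set apart from the other 3 by a gap above the 95% critical value of Dixon's test, where chance gives about 1 in 20, or 16. All values are normalised reads. Gpnmb in Lung had 1220.4 in replicate 3 at 15 months, above the 348 to 411 of the other 3 libraries. In Lung, replicate 4 of the 24-month group held Gpnmb at 1884, above a range of 501 to 705. Replicate 4 of Lung at 6 months had 63.0 for Trem2, above the other libraries at 44.9 to 46.8. Trem2 in Muscle had 10.1 in replicate 3 at 24 months, below the 21.4 to 23.3 of the other 3 libraries. In Skin, replicate 1 of the 30-month group held Trem2 at 22.2, above a range of 5.17 to 6.06. Replicate 4 of Aorta at 6 months had 21.8 for Clec7a, below the other libraries at 55.7 to 60.8. Cst7 in Aorta had 30.2 in replicate 3 at 15 months, above the 1.89 to 2.94 of the other 3 libraries. In Brain, replicate 4 of the 24-month group held Cst7 at 32.9, above a range of 13.5 to 16.6. Replicate 2 of Brain at 30 months had 59.2 for Cst7, above the other libraries at 21.8 to 26.7. Cst7 in Heart had 1.89 in replicate 3 at 15 months, above the other 3 libraries, all at 0. In Kidney, replicate 4 of the 30-month group held Cst7 at 16.8, above a range of 2.90 to 4.68. Replicate 1 of Liver at 6 months had 1.80 for Cst7, which was 1 raw read, above the other 3 libraries, all at 0. With the other 3 at 0, as in these Heart and Liver groups, any read gives the largest gap. The rate of 1 in 20 does not hold for such groups. Cst7 in Liver had 17.7 in replicate 2 at 24 months, above the 1.29 to 2.99 of the other 3 libraries. In Lung, replicate 3 of the 15-month group held Itgax at 1546, above a range of 1116 to 1148. Replicate 2 of Heart at 15 months had 55.0 for Lgals3, below the other libraries at 78.2 to 81.3. Lgals3 in Kidney had 379 in replicate 2 at 24 months, below the 443 to 446 of the other 3 libraries. In Lung, replicate 1 of the 6-month group held Lgals3 at 2132, above a range of 1787 to 1842. Replicate 4 of Muscle at 24 months had 249.5 for Lgals3, above the other libraries at 151 to 167. Lgals3 in Skin had 12519 in replicate 3 at 15 months, above the 8938 to 9351 of the other 3 libraries. In Aorta, replicate 3 of the 6-month group held Cd68 at 234, above a range of 105 to 117. Replicate 2 of Aorta at 24 months had 286 for Cd68, above the other libraries at 149 to 166. Cd68 in Kidney had 56.6 in replicate 1 at 6 months, above the 48.6 to 49.5 of the other 3 libraries. In Aorta, replicate 3 of the 6-month group held Tyrobp at 195, above a range of 118 to 125. Replicate 2 of Brain at 15 months had 214 for Tyrobp, above the other libraries at 171 to 174. Axl in Aorta had 1239.9 in replicate 1 at 24 months, below the 1647 to 1719.5 of the other 3 libraries. In Brain, replicate 1 of the 30-month group held Axl at 986, above a range of 868 to 880.4. Replicate 1 of Heart at 24 months had 1207 for Axl, above the other libraries at 1042 to 1069.

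The change at 30 against 6 months differed between tissues for each of the 10 members, in a limma-trend F test adjusted over all genes. The adjusted p was 7.63e-14 for Gpnmb, 4.11e-05 for Trem2, 1.71e-08 for Clec7a, 0.011 for Cst7, 1.81e-05 for Itgax. It was 2.64e-10 for Lgals3, 2.72e-05 for Cd68, 0.00386 for Tyrobp, 5.12e-16 for Axl and 3.09e-05 for Mpeg1. Cst7 was tested in 3 tissues alone, so its value includes 5 tissues with few reads. The members were named from the same changes, so these values describe them, and 32.2% of all genes passed the same test.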

How the results depend on the processing

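Of 49 tissue-gene pairs called at 30 against 6 months, 41 stayed called in every alternative and with every library left out, 3 were lost in another alternative (Axl and Tyrobp in Lung, Tyrobp in Brain) and 8 with 1 library left out; no pair reversed. The total ran from 48 to 53 over the other settings and 45 to 50 with 1 library left out. In Lung it ran from 5 to 10 with 1 library left out, and was 5 when 6-month replicate 2 or 3 was left out, or 30-month replicate 1 or 4. In Skin DESeq2 called 1, and leaving out 1 library gave 0 to 1, the 1 being without 6-month replicate 2.

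At 15 against 6 months DESeq2 called 10, the 2 ages alone 14 and the fit without 4 libraries of Heart, Liver and Kidney 8. Leaving out 1 library gave 2 to 7: 2 without Heart 6-month replicate 1 or 15-month replicate 2 or 4, and 7 without Heart 24-month replicate 4. At 24 against 15 months no filter gave 8, edgeR with RLE 20 and DESeq2 29, and leaving out 1 library 10 to 16. At 30 against 24 months edgeR called 2 with TMM, 2 with RLE and DESeq2 3, and leaving out 1 library gave 0 to 1, the 1 being without Brain 30-month replicate 3. The cause was not tested. Low reads limit Cst7 outside Brain, Lung and Skin.

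Replicate numbers were not taken to pair libraries, because only 37 of 192 same-number pairs correlated above 0.1 and 48 libraries were closest to their own number. The mean correlation of same-number libraries was 0.031 to 0.045 in 7 tissues and -0.056 in Skin. For libraries of different number it was -0.015 to -0.010 in those 7 tissues and 0.019 in Skin. Same-number libraries were thus slightly more alike in those 7 tissues, so a weak link by number remains possible. With the replicate block, 49 pairs were called at 30 against 6 months, with Axl in Lung lost and Clec7a in Muscle gained, 45 at 24 and 5 at 15 against 6, and 16 at 24 against 15.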
